A study of Homo sapiens with 7 samples.

Results

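Acidified medium was compared with normal medium in HEK-293 cells across the whole protein-coding transcriptome. HEK-293 is an immortalized line from human embryonic kidney that carries adenoviral genes and expresses a mixture of kidney, neuronal and epithelial markers. The acidosis group was 3 samples kept for 48 h in DMEM at pH 6.6 with the solvent DMSO, and the control group was 2 samples kept for 48 h in DMEM at pH 7.4 with a matching amount of DMSO. All cells came from the same line, with no genetic change by the study, and every culture received serum, glutamine and antibiotics, so the results describe a single transformed line in culture. These 5 of the 7 samples of the series form the comparison, and the other 2 (10 µM SRPIN340, a kinase inhibitor, at pH 7.4) only shared the estimate of the spread in the fit. The groups were taken from the sample labels, and the genes were chosen by expression alone, with 14863 of 19978 genes passing the filter on low counts and 1951 genes at 0 in every sample. The filter asks for counts in only as many samples as the smallest group holds. A gene near 0 in one group could therefore pass through another group where it is high. The comparison asks which genes change their transcript level when cells live for 2 days in mildly acidic surroundings, the chronic state meant by acidosis here.

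Levels are given in CPM, the counts of a gene relative to the library total after that total is scaled by the TMM factor (a trimmed mean that sets the typical gene equal between libraries). A value with ± is a mean and SD, over 2 samples in control and over 3 in acidosis, and n stands for samples throughout. Where SE is written after a log2 fold change, it was derived and not fitted. It is the absolute log2 fold change divided by the square root of the F statistic of the edgeR test. The words called, rose and fell mean an adjusted p under 0.05 (edgeR quasi-likelihood test, Benjamini-Hochberg over all tested genes) together with an absolute log2 fold change over 1. The p-values measure the spread between these samples, which the study's methods call biological repeats. How their technical repeats were combined is not given in the sources used here. Library totals were 23695530 and 24110460 counts in control and 21370143, 13615816 and 14870301 counts in acidosis, so genes of low expression were measured less precisely in acidosis. The 100 genes with the most counts held 15.2% of the counts in both control samples and 24.1% to 24.8% in acidosis. Because of this, the scaling matters: the median log2 fold change over all tested genes was -0.05 with TMM and -0.63 with library totals alone, and a rise or fall here is relative to the typical gene. The result under library totals is given beside the gene lists for that reason. Groups are lists of known pathways and families, and where 5 or fewer members of a list were called, those outside the rule for named genes were named after their values were seen. Replicates within a group differed by more than sampling noise in every pair.

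Cells in acidic medium take up protons through the plasma membrane, and a lower cytosolic pH is known to affect protein folding, enzyme activity and the traffic of endosomes and lysosomes. Cells under such a load commonly engage the immediate-early genes, whose transcription starts within minutes of a stimulus and needs no new protein. Misfolded protein engages the heat shock response in the cytosol and the unfolded protein response in the endoplasmic reticulum. Interferon-stimulated genes encode antiviral proteins and have a basal level in many cell lines.

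In acidosis 2145 genes (14.4% of those tested) were called higher and 2840 (19.1%) lower, 33.5% in all. With library totals alone the calls were 815 higher and 5202 lower. The groups did not overlap in CPM for 11363 genes, or 76.5% of those tested, and 66.7% had an adjusted p under 0.05 with no limit on the fold. With TMM, 111 genes were called above a log2 fold change of 4 and 84 under -4. At a limit of 2 the calls were 524 higher and 895 lower. The counts at 4 were not made with library totals, under which the median fold change was lower. Falls also end at a higher floor in acidosis, where 3 counts equal 0.275 CPM in the smallest library, against 0.108 CPM in control. The genes called higher held 22.8% and 23.4% of the counts in the control samples and 48.8%, 48.1% and 49.2% in the acidosis samples. Those called lower went from 14.6% and 14.2% to 3.12%, 3.22% and 3.07%. The genes without a call went from 62.7% and 62.4% of the counts to 48.1%, 48.7% and 47.7%. Genes that rose thus held about as many counts in acidosis as all the others without a call.

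**Figure D1:**
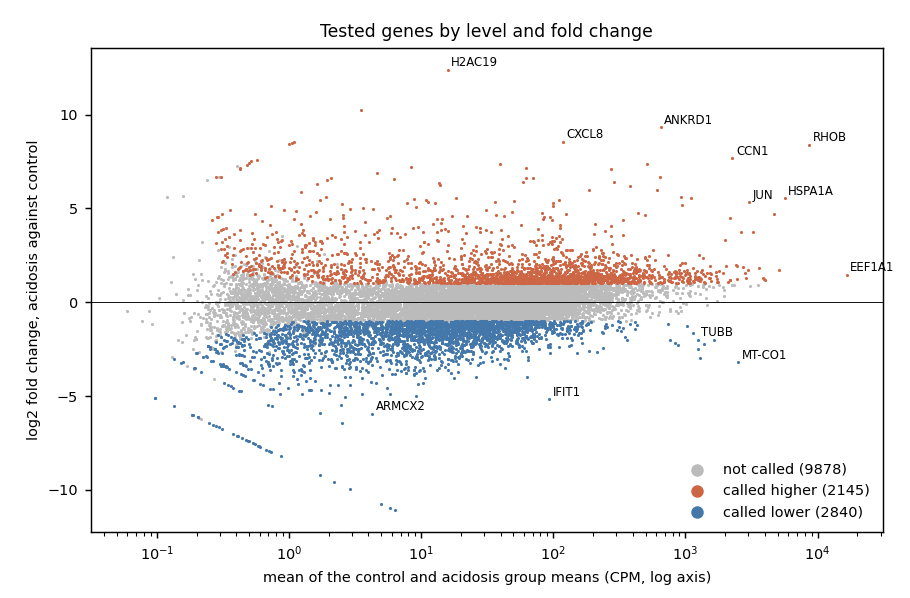
Each point is a tested gene, with the mean of the control and acidosis means in CPM (log axis) across and the log2 fold change of acidosis against control up. Among genes of high level, RHOB, CCN1, JUN and HSPA1A stand far above the line at 0, and the 2840 genes called lower lie mostly at middle and low levels.

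The gene that gained the most counts was RHOB (ENSG00000143878.10, chr2:20447074-20449440, + strand of GRCh38), a single-exon gene for a small GTPase of endosomes and actin. It measured 52.0 and 49.5 CPM in control and 17007, 16682 and 18030.0 CPM in acidosis, a 339.8-fold rise (log2 fold change 8.41 ± 0.16 SE, adjusted p = 8.10e-10). The replicates of each group lay close together, and the groups were far apart. CCN1, a secreted matrix protein and YAP target, measured 22.5 and 21.9 CPM in control and 4425, 4432 and 4702 CPM in acidosis, a 204-fold rise (log2 fold change 7.67 ± 0.08 SE, adjusted p = 2.11e-11). The DNA-binding AP-1 subunit JUN measured 149.5 and 143 CPM in control and 5890.1, 5554 and 6196 CPM in acidosis, a log2 fold change of 5.33. PMAIP1, the pro-apoptotic BH3-only protein NOXA, measured 399 and 317 CPM in control and 4624, 5080.0 and 4921 CPM in acidosis (log2 fold change 3.77 ± 0.10 SE, adjusted p = 7.58e-09). In each of these genes every acidosis sample was several times above every control sample. The remaining gains were in genes for chaperones, cytoskeleton and translation that were already abundant: EEF1A1, the elongation factor that brings aminoacyl-tRNA to the ribosome, went from 8882 ± 150.1 to 24349 ± 872 CPM, ACTG1, cytoplasmic gamma-actin, from 2378 ± 139 to 7785 ± 323 CPM, and PTMA, a small acidic nuclear protein, from 1567 ± 131 to 5586 ± 86.8 CPM. EEF1A1, ACTG1 and PTMA have near-identical copies elsewhere in the genome, so their counts may include reads of those copies.

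The largest losses of counts were in mitochondrially encoded transcripts. MT-CO1 (ENSG00000198804.2, chrM:5904-7445, + strand), the catalytic subunit of cytochrome c oxidase, measured 4556 and 4502 CPM in control and 475, 518 and 481 CPM in acidosis (log2 fold change -3.20 ± 0.09 SE, adjusted p = 8.85e-09), and MT-CO2, a second subunit of the same complex, fell from 2282 ± 99.0 to 291 ± 11.8 CPM. The 13 protein genes of mitochondrial DNA were all called lower, and together they measured 20965 and 20365 CPM in control and 4064, 4325 and 3929.7 CPM in acidosis (median log2 fold change -2.22, and -2.79 with 0 higher and 13 lower under library totals). Some of these genes overlap on mitochondrial DNA, so reads are not assigned to each with certainty. In bulk samples, here and in every other result, fewer cells with a transcript and less of it per cell cannot be told apart. Beyond them, the largest losses were TUBB, a beta-tubulin, at 1951 and 2009 CPM in control and 509.9, 463 and 507 CPM in acidosis (log2 fold change -2.005 ± 0.06 SE, adjusted p = 8.77e-09), and HNRNPU, a nuclear scaffold protein that binds RNA, from 1734 ± 372 to 554 ± 44.4 CPM.

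**Figure D2:**
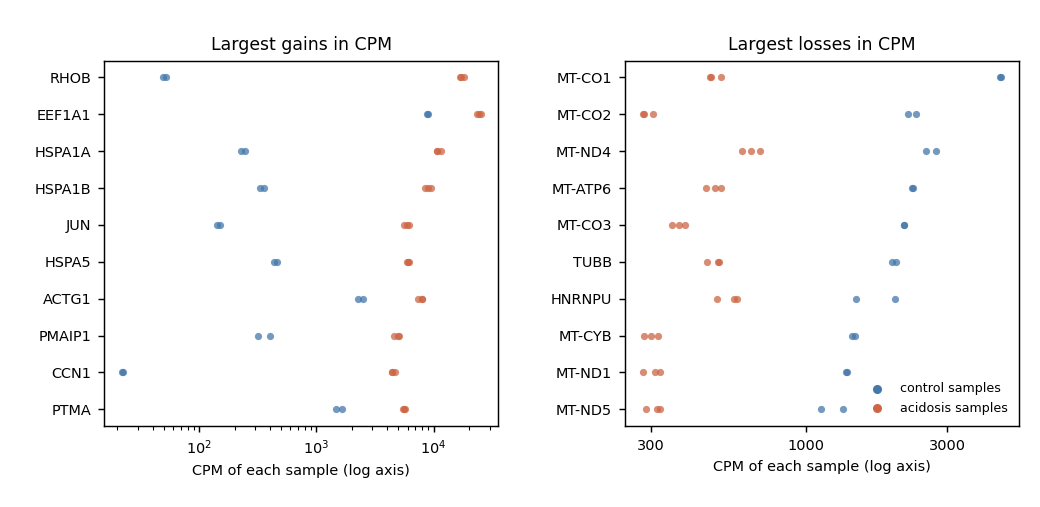
CPM of each sample (log axis) for the 10 called genes with the largest gain and the 10 with the largest loss in CPM, with control samples in blue and acidosis samples in orange. In every gene the 2 groups are separated, by over 300-fold in RHOB and by about 2.7-fold in EEF1A1.

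A separate class had at most 3 counts in every control library and at least 1 CPM in every acidosis library, and 13 genes met this rule. All were called higher, a direction that the rule itself fixes. Their folds are lower bounds, computed against 3 counts in the smallest control library (0.108 CPM). H2AC19, a core histone gene with near-identical copies, had 0 and 0 counts in control and 245, 688 and 203 counts in acidosis, which is at least 294-fold higher, and its acidosis samples spread from 14.5 to 63.2 CPM. CXCL2, a neutrophil-attracting chemokine, had 3 and 3 counts in control and 340, 148 and 192 counts in acidosis, at least 155-fold higher. CRYAB, the small heat shock protein alpha-B crystallin, had 2 and 2 counts in control and 152, 109 and 101 counts in acidosis and was at least 85.5-fold higher. TNF, a cytokine, had 2 and 0 counts in control and 69, 50 and 42 counts in acidosis, at least 37.9-fold higher, and DHH, a hedgehog ligand, had 2 and 2 counts in control and 61, 36 and 37 counts in acidosis. The other genes of this class with no same-strand overlap were H4C4 (a histone), NPAS4 (an activity-dependent transcription factor), GARIN4 and SELE (E-selectin, an adhesion molecule of activated endothelium), the last pair named after their values were seen. In order these 4 genes reached a mean of 3.22, 2.12, 2.02 and 1.43 CPM in acidosis, so they came off the floor only to a low level. The other 4 genes of the 13 overlap another gene on the same strand, so their reads cannot be assigned with certainty, and 3 of the 13 have a single exon.

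In the opposite direction 48 genes had at most 3 counts in every acidosis library and at least 1 CPM in every control library, all called lower, again as the rule fixes. The floor in acidosis was higher (0.275 CPM in the smallest library), since those libraries were smaller and had lower TMM factors (mean 0.790, against 1.18 in control). Only 6 of the 48 reached 5 CPM in control, 9 overlap another gene on the same strand, and the highest control mean was 12.8 CPM, in a locus that overlaps COA8 and KLC1. The highest without an overlap was ARMCX2, an armadillo repeat gene of the X chromosome, with 295 and 173 counts in control and 1, 1 and 3 counts in acidosis, at least 30.3-fold lower. FAM13C had 109 and 182 counts in control and 3, 1 and 2 counts in acidosis, and IGSF10, an immunoglobulin superfamily protein, had 115 and 164 counts in control and 0, 1 and 1 counts in acidosis. LZTS1 had 230 and 39 counts in control and 1, 1 and 2 counts in acidosis, so its control samples differed by several times, and RIMBP3 had 120 and 129 counts in control and 0, 0 and 0 counts in acidosis, with no count in any acidosis sample. RIMBP3 has near-identical copies, and how reads were divided among them is uncertain. Its copy RIMBP3C had 41 and 57 counts in control and 0, 0 and 0 counts in acidosis. The lost genes also held regulators of development and of innate immunity, which were picked out after their values were seen: the homeobox genes MIXL1 and NKX2-3, the hematopoietic factor TAL1, the apoptosis ligand TNFSF10 and the interferon-inducible genes SAMD9L and DHX58. SAMD9L had 110 and 81 counts in control and 0, 0 and 2 counts in acidosis, TNFSF10 43 and 39 counts in control and 0, 0 and 0 counts in acidosis and MIXL1 77 and 79 counts in control and 1, 2 and 1 counts in acidosis. In each of these the groups were apart by more than 10-fold in counts, with control means of no more than 3.40 CPM.

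**Figure D3:**
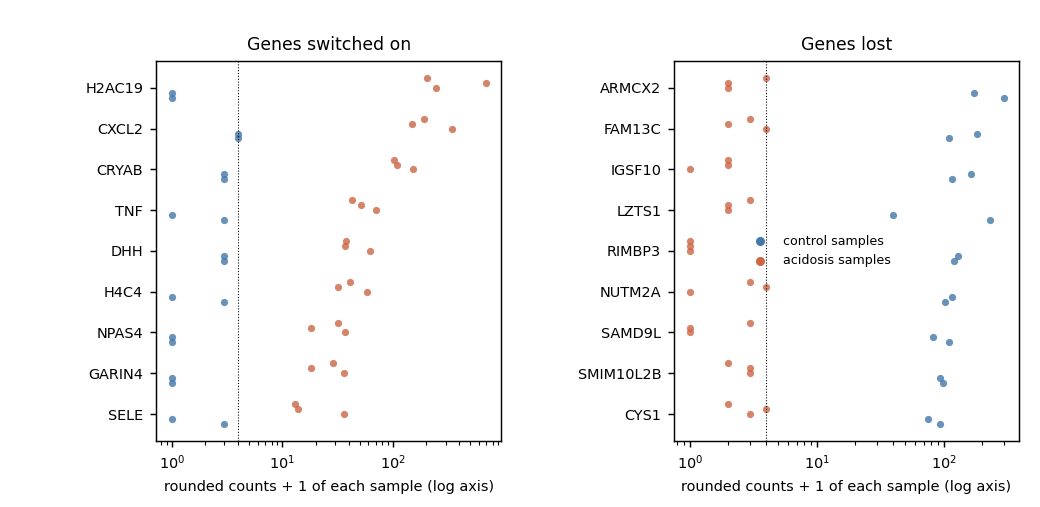
Rounded counts plus 1 of each sample (log axis) for the 9 highest genes switched on and the 9 highest lost among those that overlap no other gene, with a dotted line at 3 counts. Control samples of the first panel and acidosis samples of the second sit at or under the line, and the opposite group lies at 12 counts or more.

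A TATA box, the element that binds TBP and fixes the start site, stood at its usual place in a larger share of the genes with large rises. Windows from 250 bases before to 50 after the annotated start were taken from RefSeq for 11912 of the 14863 tested genes (80.1%). The letters TATAAA on the gene's strand, with the first base 25 to 35 bases before the start, were in 1.93% of all windows, in 5.40% of those of genes called higher and in 1.24% of those of genes called lower. Among genes with a log2 fold change over 4 the share was 34.5% of 84 windows, and 28.6% of 70 windows without replication-dependent histones. Under -4 it was 3.64% of 55. By list, 56.1% of 41 histone windows, 33.3% of 9 AP-1 windows and 21.7% of 23 chemokine and cytokine windows held it, and none of 12 windows of the EGR, NR4A and IER list. A match is a description of the letters and not of a bound factor. The promoters of 7 genes that rose are shown as examples of this element, picked because they hold it from among the early, chaperone, stress response, inflammatory and histone genes described afterwards. The capitals mark the TATA box. The log2 fold change was 7.14 for FOS, 6.01 for DUSP1, 8.54 for CXCL8, 5.57 for PPP1R15A, 5.54 for HSPA1A, 3.61 for HERPUD1 and 7.09 for H2BC21. In DUSP1 and PPP1R15A the capitals also mark TGACGTCA, the palindrome that CREB and ATF factors bind. Sequences read 5′ to 3′ on the strand of the gene, from RefSeq on GRCh38.p14.

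FOS (chr14:75278780-75278815, + strand): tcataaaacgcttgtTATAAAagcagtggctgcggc
DUSP1 (chr5:172771208-172771332, - strand): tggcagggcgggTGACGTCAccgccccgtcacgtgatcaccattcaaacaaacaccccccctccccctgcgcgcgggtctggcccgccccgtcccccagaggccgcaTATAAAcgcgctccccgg
CXCL8 (chr4:73740523-73740558, + strand): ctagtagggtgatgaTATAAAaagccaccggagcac
PPP1R15A (chr19:48872351-48872408, + strand): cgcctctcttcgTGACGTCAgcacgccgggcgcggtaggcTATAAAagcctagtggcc
HSPA1A (chr6:31815498-31815533, + strand): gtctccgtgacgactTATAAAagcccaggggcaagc
HERPUD1 (chr16:56932098-56932133, + strand): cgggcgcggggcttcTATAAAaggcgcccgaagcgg
H2BC21 (chr1:149886692-149886727, - strand): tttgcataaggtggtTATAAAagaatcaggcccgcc

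In all 7 the TATA box began 29 to 33 bases before the start. TGACGTCA, searched on both strands and palindromic, was in 3.08% of all windows, 4.88% of those called higher, 1.82% of those called lower and 7.14% of those above 4. TGACTCA, the AP-1 site, was in 3.15%, 4.82% and 2.39% of all, higher and lower windows.

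Immediate-early transcription factors rose together, and the AP-1 list had the highest median of all lists under either scaling. Of 11 tested AP-1 genes, 8 were called higher and 2 lower (median log2 fold change 5.33, and 4.76 with 8 higher and 3 lower under library totals). FOS, the partner of JUN in the AP-1 dimer, measured 0.829 and 0.913 CPM in control and 117, 125 and 128 CPM in acidosis (log2 fold change 7.14 ± 0.17 SE, adjusted p = 2.56e-09), and JUNB measured 6.20 and 6.92 CPM in control and 598, 487 and 614 CPM in acidosis (log2 fold change 6.43 ± 0.14 SE, adjusted p = 1.50e-09). Both were under 10 CPM in control and far above it in acidosis. The 2 that fell were BATF3, from 8.86 ± 1.72 to 3.36 ± 1.42 CPM, and BATF2, AP-1 relatives best known from immune cells. Of 18 EGR, NR4A, IER and similar early genes, 17 rose and none fell (median log2 fold change 3.42, and 2.84 with 15 higher and 0 lower under library totals). MAFF, a small MAF protein, went from 1.24 ± 0.0275 to 122 ± 6.79 CPM, and the nuclear receptor NR4A1 from 4.92 ± 0.0357 to 215 ± 19.4 CPM. Kruppel-like factors had 9 of 15 called higher and none lower (median log2 fold change 1.18, and 0.61 with 6 higher and 2 lower under library totals), led by KLF2 at 2.02 and 0.843 CPM in control and 137, 149 and 130.3 CPM in acidosis and KLF6 at 51.5 and 48.3 CPM in control and 1799.7, 1787 and 1939.6 CPM in acidosis. KLF6 had the higher share of counts and the smaller fold (36.9-fold against 97.02-fold).

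The feedback arm that limits these responses rose with them. MAP kinase phosphatases and Sprouty proteins, which switch off kinase signalling, had 11 of 18 called higher and none lower (median log2 fold change 1.63, and 1.06 with 10 higher and 3 lower under library totals). DUSP1 measured 18.3 and 19.2 CPM in control and 1153, 1219 and 1241 CPM in acidosis (log2 fold change 6.01 ± 0.10 SE, adjusted p = 3.05e-10), and DUSP8 went from 7.76 ± 1.54 to 181 ± 13.5 CPM. Among the proteins that destroy AU-rich mRNAs and the BTG/TOB genes, 7 of 15 were called higher and 1 lower, HNRNPD (median log2 fold change 0.92, and 0.34 with 7 higher and 2 lower under library totals). ZFP36, which binds AU-rich elements, went from 5.82 ± 0.383 to 366 ± 20.9 CPM and ZC3H12A, an endonuclease of inflammatory mRNAs, from 3.61 ± 0.261 to 37.0 ± 6.07 CPM, while HNRNPD, another AU-rich binding protein, fell from 489 ± 66.3 to 189 ± 11.03 CPM. Inflammatory genes rose as well. Of 30 chemokine, cytokine and NF-kB feedback genes, 21 rose and 2 fell, IL18 and TNFAIP2 (median log2 fold change 2.01, and 1.43 with 18 higher and 2 lower under library totals). The share called higher was 70.0%, against 14.4% over all genes. Members near 0 in control, such as CXCL2, could pass the filter through acidosis, so this share and median are in part set by the filter. CXCL8 (interleukin 8) measured 0.612 and 0.632 CPM in control and 231, 219.5 and 254 CPM in acidosis (log2 fold change 8.54 ± 0.15 SE, adjusted p = 4.31e-10). TNFAIP2 moved the other way, from 13.5 ± 3.84 to 2.53 ± 0.613 CPM. PTGS2, the inducible cyclooxygenase, rose from 7.10 ± 0.356 to 163 ± 2.12 CPM. HPGD, which degrades prostaglandins, fell from 17.6 ± 1.35 to 4.51 ± 1.02 CPM, and CBR1, a carbonyl reductase that acts on them, from 65.2 ± 7.38 to 12.9 ± 0.617 CPM. Over the prostaglandin genes 2 of 17 rose, PTGS1 and PTGS2, and 7 fell (median log2 fold change -0.56, and -1.13 with 2 higher and 9 lower under library totals).

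Genes of the actin cytoskeleton, many of them targets of the transcription factor SRF, were called in the higher direction. Of 29, 16 were called higher and none lower (median log2 fold change 1.18, and 0.60 with 10 higher and 3 lower under library totals), and their CPM summed to 11251 and 11067 CPM in control and 45968, 45060.4 and 46543 CPM in acidosis, with RHOB a large part of the sum. TAGLN, an actin-binding protein of smooth muscle, rose from 1.44 ± 0.202 to 19.2 ± 1.05 CPM. ANKRD1, a muscle ankyrin repeat protein and YAP/TEAD target, measured 1.80 and 2.25 CPM in control and 1269, 1292 and 1340.3 CPM in acidosis, a 643-fold rise (log2 fold change 9.32 ± 0.15 SE, adjusted p = 2.86e-10). Over all YAP/TEAD targets, 8 of 20 were called higher and 1 lower (median log2 fold change 0.60, and 0.02 with 7 higher and 4 lower under library totals). The called fall was TEAD2, a DNA-binding partner of YAP, from 33.0 ± 2.16 to 13.5 ± 1.25 CPM. The CArG box, the site of SRF, was in 1.05% of all promoter windows and in 6 of 25 windows of the SRF and actin list. EGR1, which was chosen with its value known, and ACTG1 are shown with their CArG boxes in capitals.

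EGR1 (chr5:138465362-138465417, + strand): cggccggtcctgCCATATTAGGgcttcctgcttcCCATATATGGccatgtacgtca
ACTG1 (chr17:81512872-81512905, - strand): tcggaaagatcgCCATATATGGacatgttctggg

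Integrins, the receptors for matrix, moved in both directions. ITGB1, the common beta subunit, rose from 472 ± 39.4 to 1571 ± 52.7 CPM, and ITGA5, its fibronectin-binding partner, from 48.3 ± 3.09 to 155 ± 10.9 CPM. The alpha subunits ITGA2 and ITGA4 fell, the first from 31.0 ± 5.77 to 6.74 ± 1.51 CPM and the second from 37.6 ± 4.79 to 10.4 ± 1.24 CPM. In all 7 of 22 integrins were called higher and 4 lower, ITGA2, ITGA4, ITGA9 and ITGB4 (median log2 fold change 0.27, and -0.30 with 3 higher and 5 lower under library totals), so the median changes sign with the scaling. Collagens had 10 of 39 higher and 3 lower, COL4A2, COL5A1 and COL9A3 (median log2 fold change 0.32, and -0.25 with 4 higher and 10 lower under library totals), with the same change of sign. The basement membrane chains COL4A1 and COL4A2, whose genes lie head to head, moved apart: COL4A1 measured 126 and 111 CPM in control and 443, 477 and 459.8 CPM in acidosis and COL4A2 213 and 206 CPM in control and 86.7, 79.5 and 71.5 CPM in acidosis. The list of numbered tubulin genes, which does not hold TUBB and its fall given above, had 2 of 17 higher (TUBA1B and TUBA1C) and 2 lower (TUBA8 and TUBB6, median log2 fold change 0.32, and -0.26 with 0 higher and 5 lower under library totals), TUBA1B rising from 1322 ± 17.1 to 3005 ± 83.3 CPM and TUBB6 falling from 85.4 ± 2.89 to 40.1 ± 2.94 CPM.

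Chaperones of protein folding were a further class of large rises. Of 20 HSP70 and HSP110 genes, 11 were called higher and 1 lower, HSPA12A (median log2 fold change 1.04, and 0.47 with 6 higher and 3 lower under library totals), and the CPM of the list summed to 3768 and 3545 CPM in control and 30502, 29998 and 32518 CPM in acidosis. HSPA1A, the stress-inducible HSP70 (ENSG00000204389.10, chr6:31815543-31817946, + strand), measured 244 and 229 CPM in control and 10779, 10719 and 11620.0 CPM in acidosis (log2 fold change 5.54 ± 0.10 SE, adjusted p = 5.14e-10), and its near-identical neighbour HSPA1B measured 357 and 333 CPM in control and 8983, 8381 and 9483 CPM in acidosis. How reads were divided between these copies is uncertain, but both were high. HSPA6, another strictly inducible HSP70, measured 0.396 and 0.351 CPM in control and 18.5, 13.5 and 20.4 CPM in acidosis, and its promoter holds a heat shock element, marked in capitals. The pattern was GAA, TTC and GAA with 2 free bases between the blocks, searched on both strands. It was in 0.361% of all windows, 0.349% of those called higher and 0.443% of those called lower, so it was not more frequent among genes that rose. Of 18 windows of the HSP70 list 11.1% held it, those of HSPA6 and HSPA8, both called higher. In the other chaperone lists CHORDC1, DNAJA1 and DNAJB6 held it and had no call.

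HSPA6 (chr1:161524454-161524490, + strand): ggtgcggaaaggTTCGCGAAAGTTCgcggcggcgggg

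The HSP90, chaperonin and small heat shock list had 7 of 26 higher and 1 lower, HSPB6 (median log2 fold change 0.50, and -0.08 with 4 higher and 2 lower under library totals), and the median changes sign with the scaling. HSPB8, a small heat shock protein, went from 14.4 ± 0.366 to 78.0 ± 1.37 CPM. CRYAB, of the same list, was near 0 in control and could pass the filter through acidosis. DNAJ co-chaperones, which feed clients to HSP70, were mixed, with 5 of 38 higher (DNAJB1, DNAJB4, DNAJB5, DNAJB9 and DNAJC4) and 6 lower (median log2 fold change 0.01, and -0.56 with 3 higher and 12 lower under library totals, so that the sign changes). These shares, 13.2% higher and 15.8% lower, were near the 14.4% and 19.1% over all genes. DNAJB1, the main cytosolic partner, rose from 114 ± 4.26 to 661 ± 76.3 CPM and DNAJB5 from 7.28 ± 0.510 to 83.0 ± 6.35 CPM, and DNAJC22 fell from 23.7 ± 5.61 to 3.49 ± 0.194 CPM. Proteasome subunits were nearly without calls (PSMD2 higher and PSMA3 and PSMD5 lower of 33, median log2 fold change -0.08, and -0.66 with 0 higher and 8 lower under library totals). The 4 ubiquitin genes were all called higher (median log2 fold change 1.39, and 0.81 with 1 higher and 0 lower under library totals).

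In the endoplasmic reticulum HSPA5, the HSP70 of that compartment known as BiP, measured 463 and 438 CPM in control and 5935, 6145 and 6096 CPM in acidosis, a 13.4-fold rise (log2 fold change 3.75 ± 0.06 SE, adjusted p = 3.05e-10). HERPUD1, which serves the removal of misfolded ER proteins, measured 30.5 and 31.0 CPM in control and 370.3, 382 and 378 CPM in acidosis. The ER chaperone and unfolded protein response list had 13 of 31 higher and none lower (median log2 fold change 0.86, and 0.29 with 6 higher and 2 lower under library totals). Targets of ATF4, the factor of the integrated stress response, were divided, with 11 of 32 higher and 6 lower (median log2 fold change 0.40, and -0.18 with 8 higher and 8 lower under library totals, a change of sign). PPP1R15A (GADD34), which restores translation by recruiting a phosphatase to eIF2, measured 47.7 and 43.3 CPM in control and 2146, 2137 and 2176 CPM in acidosis (log2 fold change 5.57 ± 0.08 SE, adjusted p = 2.48e-10), and SLC3A2, the heavy chain of amino acid exchangers, rose from 67.4 ± 6.44 to 413 ± 46.8 CPM. PSPH, the last enzyme of serine synthesis, fell from 28.8 ± 2.16 to 5.50 ± 0.544 CPM. Aminoacyl-tRNA synthetases, which charge tRNAs, had 5 of 37 higher (GARS1, MARS1, SARS1, VARS1 and YARS1) and 8 lower (among them AARS2, FARS2, FARSA, IARS2, NARS1, PARS2 and RARS1, median log2 fold change -0.15, and -0.73 with 1 higher and 15 lower under library totals). The shares of synthetases, 13.5% higher and 21.6% lower, were near the 14.4% and 19.1% over all genes. The cytosolic YARS1 rose from 135 ± 4.05 to 559 ± 16.1 CPM and VARS1 from 154 ± 16.5 to 386 ± 20.4 CPM. The mitochondrial PARS2 fell from 7.25 ± 0.773 to 1.66 ± 0.166 CPM.

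Several genes of growth arrest and cell death rose, and mitotic genes had more falls than rises (3.70% higher and 27.8% lower, beside 14.4% and 19.1% over all genes). GADD45A, a stress-induced cell cycle regulator, rose from 38.7 ± 5.51 to 955 ± 47.5 CPM, BBC3 (PUMA) from 7.68 ± 1.54 to 55.9 ± 5.23 CPM and the CDK inhibitor CDKN1A (p21) from 99.8 ± 1.80 to 389 ± 25.1 CPM. The p53 target list as a whole had 10 of 35 higher and 7 lower (median log2 fold change 0.07, and -0.51 with 7 higher and 11 lower under library totals, a change of sign). XPC, a DNA damage sensor, fell from 47.3 ± 0.362 to 13.5 ± 2.28 CPM, and RPS27L, a ribosomal protein paralog induced by p53, from 51.3 ± 3.23 to 13.1 ± 0.605 CPM. CDK inhibitors had 5 of 8 called higher, CDKN1A, CDKN1C, CDKN2A, CDKN2B and CDKN2D, and none lower (median log2 fold change 1.17, and 0.60 with 2 higher and 1 lower under library totals). Of 54 mitosis and spindle genes, 2 rose, FOXM1 and MAD2L1, and 15 fell (median log2 fold change -0.37, and -0.95 with 0 higher and 26 lower under library totals). KIF11, the motor that separates spindle poles, measured 243 and 210.2 CPM in control and 43.6, 50.7 and 45.4 CPM in acidosis (log2 fold change -2.29 ± 0.09 SE, adjusted p = 5.16e-08), and SPC25, a kinetochore subunit, fell from 48.8 ± 6.55 to 8.42 ± 3.09 CPM, but FOXM1, a transcription factor of mitotic genes, rose from 217 ± 11.9 to 454 ± 28.6 CPM. Genes of G1/S and replication were nearly balanced (8 of 57 higher, 9 lower, median log2 fold change -0.14, and -0.71 with 1 higher and 25 lower under library totals), with MCM10 rising from 63.0 ± 5.73 to 172 ± 1.79 CPM and ORC5, a subunit of the origin recognition complex, falling from 28.3 ± 2.83 to 4.73 ± 0.414 CPM. Homologous recombination and Fanconi genes had 2 of 35 higher (FANCB and RAD54L) and 7 lower (median log2 fold change -0.12, and -0.70 with 0 higher and 16 lower under library totals).

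Replication-dependent histones were almost all higher. These genes normally make mRNA without a poly(A) tail, so their level in a poly(A)-selected library is the level of the polyadenylated form. Of 69 such genes 43 passed the filter, and of these 39 were called higher and none lower (median log2 fold change 3.50, and 2.93 with 36 higher and 0 lower under library totals), against a background of 14.4% higher over all genes. Members near 0 in control, such as H2AC19, could pass the filter through acidosis, so this share and median are in part set by the filter. All 69 genes summed to 142 and 167 CPM in control and 2901, 2636 and 2891 CPM in acidosis. H2BC21, a histone H2B, measured 3.53 and 4.49 CPM in control and 556, 559.8 and 525 CPM in acidosis (log2 fold change 7.09 ± 0.11 SE, adjusted p = 3.00e-10). Many members of this family are near-identical, so the division of reads among them is uncertain while the sum is less so. Replication-independent variants, which make ordinary poly(A) mRNA, had 6 of 12 higher and 1 lower (median log2 fold change 0.99, and 0.42 with 2 higher and 2 lower under library totals): the linker histone H1-10 rose from 146 ± 11.3 to 993 ± 109 CPM, and MACROH2A2 fell from 82.0 ± 1.24 to 16.1 ± 2.00 CPM. CCAAT was in 78.0% of 41 histone windows and 36.6% of all windows.

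Genes for ribosomal proteins rose together by a modest amount, which under library totals stayed below the limit in most. Of 84 cytosolic ribosomal protein genes, 57 were called higher and 1 lower (median log2 fold change 1.21, and 0.63 with 7 higher and 2 lower under library totals), and 82 had a positive fold change. They summed to 46645 and 51284 CPM in control and 113167, 103265 and 114154 CPM in acidosis. RPL39 measured 545 and 635 CPM in control and 1918, 1633 and 1991 CPM in acidosis, and the called fall was RPS27L, a paralog of RPS27. The samples of the groups did not overlap in RPL39. Translation factors had 20 of 66 higher and 1 lower (median log2 fold change 0.48, and -0.10 with 5 higher and 6 lower under library totals), the median turning negative under library totals. EIF1, which guards the choice of start codon, rose from 372 ± 20.2 to 2148 ± 131 CPM and the helicase EIF4A2 from 117 ± 0.681 to 592 ± 41.99 CPM. The 13 mitochondrial genes of the respiratory complexes were all called lower, and of 77 nuclear-encoded subunits 14 were called higher and 2 lower, the falls with NDUFV3 among them (median log2 fold change 0.66, and 0.09 with 0 higher and 7 lower under library totals). The share called higher, 18.2%, was near the 14.4% over all genes, and the share called lower was 2.60% beside 19.1%. UQCRQ of complex III rose from 74.5 ± 25.7 to 194 ± 27.6 CPM. With library totals alone no nuclear-encoded subunit was called higher. Mitochondrial ribosomal proteins had 3 of 78 higher (MRPL33, MRPL42 and MRPL48) and 17 lower (median log2 fold change -0.12, and -0.70 with 2 higher and 27 lower under library totals), and MRPS18A fell from 33.8 ± 2.65 to 6.67 ± 1.61 CPM as MRPL42 rose from 77.2 ± 2.54 to 292 ± 14.1 CPM.

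Interferon effector genes, which act against viruses, fell. Of 50 tested, none rose and 39 fell (median log2 fold change -1.94, and -2.52 with 0 higher and 45 lower under library totals), against 19.1% lower over all genes, and 49 did not overlap between groups, where 76.5% of all genes did not. IFIT1 (ENSG00000185745.10, chr10:89392546-89406487, + strand), which binds foreign 5′ ends of RNA, measured 198 and 166 CPM in control and 4.69, 4.77 and 5.67 CPM in acidosis (log2 fold change -5.18 ± 0.15 SE, adjusted p = 8.31e-09). CMPK2, a mitochondrial nucleotide kinase induced by interferon, measured 17.5 and 18.5 CPM in control and 1.54, 0.367 and 0.430 CPM in acidosis. All acidosis samples were under 2 CPM in CMPK2 and under 6 CPM in IFIT1. Among MHC class I and antigen processing genes, many also inducible by interferon, 9 of 20 were called higher and 1 lower, PSMB9 (median log2 fold change 0.77, and 0.19 with 0 higher and 2 lower under library totals). These rises included B2M, the light chain, from 242 ± 24.99 to 712 ± 6.66 CPM and HLA-B from 177 ± 11.6 to 486 ± 37.9 CPM. The interferon-stimulated response element, searched on both strands as GAAA and GAAA with 2 free bases between them, was in 57.9% of 38 windows of the interferon list, 2.90% of all windows and 3.81% of those called lower. IFIT1 is shown with IFIT3 and IFI44, which were chosen with their values known and had log2 fold changes of -3.97 and -3.63. The capitals mark the element, which in these lines lies on the opposite strand and so reads TTTC and TTTC.

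IFIT1 (chr10:89392495-89392541, + strand): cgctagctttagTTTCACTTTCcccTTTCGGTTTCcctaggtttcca
IFIT3 (chr10:89327829-89327896, + strand): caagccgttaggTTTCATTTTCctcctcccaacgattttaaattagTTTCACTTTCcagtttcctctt
IFI44 (chr1:78649759-78649792, + strand): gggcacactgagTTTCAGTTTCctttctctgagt

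Developmental signalling genes had more falls than rises in the WNT, semaphorin, HOX and cilium lists, as did all tested genes (14.4% higher and 19.1% lower). The share called lower was 35.6% in the WNT, 25.8% in the semaphorin, 21.1% in the HOX and 30.2% in the cilium list, that of HOX near the background. The share called higher was 2.22%, 9.68%, 2.63% and 2.33% in the same order. In the WNT list 1 of 45 rose, RNF43, and 16 fell (median log2 fold change -0.46, and -1.03 with 0 higher and 23 lower under library totals). The ligand WNT5B measured 12.2 and 13.4 CPM in control and 1.78, 1.10 and 0.946 CPM in acidosis. The receptor FZD4 measured 31.1 and 31.6 CPM in control and 3.27, 3.21 and 4.47 CPM in acidosis. The groups were far apart in both genes. BMP and activin genes were divided, with 8 of 38 higher and 10 lower (median log2 fold change 0.39, and -0.18 with 5 higher and 12 lower under library totals, a change of sign). The ligands BMP3 and BMP4 fell, the first from 20.1 ± 2.28 to 1.25 ± 0.430 CPM and the second from 7.69 ± 0.538 to 0.769 ± 0.0794 CPM. INHBA, a subunit of activin, rose from 1.35 ± 0.226 to 32.8 ± 3.73 CPM and ID3, an inhibitor of bHLH factors, from 9.50 ± 0.878 to 59.2 ± 8.70 CPM. NOTCH genes had 6 of 25 each way (median log2 fold change 0.02, and -0.55 with 4 higher and 10 lower under library totals, a change of sign). Of its targets HES1, a repressor, rose from 58.2 ± 3.40 to 403 ± 25.2 CPM and HEYL fell from 8.14 ± 0.203 to 1.06 ± 0.124 CPM. Semaphorins and their receptors had 3 of 31 higher (PLXNB1, PLXND1 and SEMA7A) and 8 lower (median log2 fold change -0.25, and -0.82 with 1 higher and 14 lower under library totals). SEMA5A, an axon guidance cue, fell from 24.2 ± 0.869 to 3.24 ± 1.97 CPM. HOX genes had 1 of 38 higher (HOXD11) and 8 lower (median log2 fold change -0.09, and -0.66 with 0 higher and 16 lower under library totals). HOXB13, a gene of the posterior body, fell from 13.2 ± 2.05 to 1.06 ± 0.205 CPM. Cilium transport genes had 1 of 43 higher (TMEM231) and 13 lower (median log2 fold change -0.23, and -0.81 with 0 higher and 19 lower under library totals), with DYNC2LI1, of the retrograde motor, from 29.3 ± 0.913 to 7.47 ± 1.64 CPM. FGF ligands and receptors had 6 of 20 higher and 2 lower, FGF5 and FGFR2 (median log2 fold change 0.21, and -0.36 with 0 higher and 4 lower under library totals, a change of sign). The ligand FGF2 rose from 10.97 ± 1.86 to 29.9 ± 1.10 CPM and the receptor FGFR2 fell from 46.1 ± 0.718 to 9.68 ± 3.36 CPM.

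Acid-sensing channels and receptors had 2 of 13 higher (ASIC3 and KCNK1) and 6 lower (median log2 fold change -0.61, and -1.17 with 0 higher and 7 lower under library totals), beside 14.4% higher and 19.1% lower over all genes. ASIC3, an acid-gated sodium channel, measured 3.89 and 3.33 CPM in control and 11.2, 8.17 and 10.8 CPM in acidosis, and KCNK5, a background potassium channel sensitive to pH, measured 5.44 and 6.70 CPM in control and 1.19, 0.826 and 0.602 CPM in acidosis. Proton, bicarbonate and lactate transporters had 1 of 27 higher and 3 lower, HVCN1, SLC26A2 and SLC4A4 (median log2 fold change -0.11, and -0.69 with 0 higher and 11 lower under library totals). BSG, the chaperone of lactate carriers, rose from 425 ± 31.6 to 1086 ± 52.4 CPM and the sodium bicarbonate cotransporter SLC4A4 fell from 18.9 ± 0.383 to 6.06 ± 1.99 CPM. Of the 8 carbonic anhydrases tested none was called higher and 1 lower, CA7 (median log2 fold change 0.15, and -0.43 with 0 higher and 2 lower under library totals, a change of sign). Potassium channels overall had 6 of 53 higher and 15 lower (median log2 fold change -0.24, and -0.82 with 4 higher and 20 lower under library totals).

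Lysosomes are the acidic compartment where cells degrade material. Of 38 hydrolase and membrane protein genes, 17 were called higher and 2 lower, CTSB and CTSL (median log2 fold change 0.94, and 0.37 with 4 higher and 4 lower under library totals). The V-ATPase is the pump that acidifies lysosomes. Of 24 tested genes of its list, 6 were higher and 2 lower, ATP6V0D2 and ATP6V1FNB (median log2 fold change 0.45, and -0.12 with 1 higher and 5 lower under library totals, a change of sign). ATP6V1FNB is named as a neighbour of the subunit gene ATP6V1F and is not itself a subunit. NEU1, a sialidase, measured 79.1 and 102 CPM in control and 554, 500.2 and 532 CPM in acidosis, but the cysteine protease CTSL fell from 71.0 ± 2.30 to 17.2 ± 0.554 CPM and its relative CTSB from 105.4 ± 0.838 to 30.7 ± 1.56 CPM. TFE3, a transcription factor of lysosome and autophagy genes, rose from 54.0 ± 5.68 to 295 ± 8.02 CPM, and autophagy genes had 8 of 38 higher and 2 lower, ATG101 and ATG7 (median log2 fold change 0.39, and -0.18 with 5 higher and 11 lower under library totals, a change of sign). Peroxisome biogenesis had 1 of 16 higher and 7 lower (median log2 fold change -0.36, and -0.94 with 1 higher and 7 lower under library totals). PEX3, which inserts peroxisomal membrane proteins, fell from 25.9 ± 0.951 to 4.32 ± 1.97 CPM while PEX13 rose from 24.7 ± 1.58 to 90.7 ± 11.9 CPM.

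Among metabolic genes, single enzymes had large falls. Over all tested genes 14.4% were called higher and 19.1% lower, and the glutamine list (17.4% and 21.7%) lay near these shares. IDH1, the cytosolic and peroxisomal NADP-dependent isocitrate dehydrogenase, measured 119 and 111 CPM in control and 12.5, 15.3 and 13.2 CPM in acidosis, a 8.38-fold fall (log2 fold change -3.08 ± 0.10 SE, adjusted p = 1.65e-08). CPT2, which releases fatty acids for oxidation inside mitochondria, measured 40.9 and 37.4 CPM in control and 5.11, 5.97 and 3.44 CPM in acidosis (log2 fold change -3.01 ± 0.18 SE, adjusted p = 4.22e-07). Fatty acid oxidation had 2 of 32 genes higher (ACADVL and CPT1B) and 9 lower (median log2 fold change -0.62, and -1.20 with 0 higher and 20 lower under library totals), and fatty acid synthesis 1 of 25 each way (FASN higher and ACSL1 lower, median log2 fold change -0.08, and -0.65 with 0 higher and 9 lower under library totals). Glycolysis and pyruvate entry had 12 of 34 higher and 6 lower (median log2 fold change 0.61, and 0.03 with 2 higher and 7 lower under library totals): the glucose transporter SLC2A1 rose from 45.8 ± 2.42 to 165 ± 14.8 CPM, and of the pyruvate dehydrogenase complex DLAT fell from 91.6 ± 3.20 to 24.3 ± 2.10 CPM and DLD from 132 ± 16.04 to 44.1 ± 7.36 CPM. In cholesterol synthesis, 4 of 32 were higher (among them HMGCS1, IDI1 and INSIG1) and 8 lower (median log2 fold change -0.05, and -0.62 with 2 higher and 13 lower under library totals), HMGCS1, at the head of the pathway, rising from 634 ± 69.8 to 2427 ± 138 CPM and NSDHL, further down it, falling from 91.5 ± 3.83 to 21.7 ± 1.83 CPM. Antioxidant genes had 16 of 39 higher and 7 lower (median log2 fold change 0.61, and 0.03 with 2 higher and 10 lower under library totals): the ferritin light chain FTL rose from 262 ± 31.9 to 899 ± 37.6 CPM, and KEAP1, the inhibitor of NRF2, fell from 61.8 ± 7.42 to 16.2 ± 3.14 CPM. Hypoxia-inducible factor targets had 10 of 30 higher and 4 lower, BNIP3, EGLN3, LOX and PFKFB4 (median log2 fold change 0.36, and -0.21 with 5 higher and 7 lower under library totals, a change of sign), with ADM, a vasodilator peptide, rising from 11.3 ± 1.18 to 66.4 ± 6.08 CPM and BNIP3, a mitophagy receptor, falling from 30.1 ± 0.0223 to 8.79 ± 1.09 CPM. Glutamine genes had 4 of 23 higher (among them ASNS, SLC3A2 and SLC7A5) and 5 lower (CTPS2, GLS2, SLC1A5, SLC38A3 and SLC38A7, median log2 fold change -0.22, and -0.80 with 4 higher and 8 lower under library totals). ASNS, asparagine synthetase, rose from 70.8 ± 6.90 to 303 ± 18.8 CPM, and the transporter SLC1A5 fell from 185 ± 14.3 to 49.8 ± 1.08 CPM. Clock genes had 12 of 22 higher and 1 lower (median log2 fold change 1.09, and 0.52 with 6 higher and 2 lower under library totals). TEF rose from 8.27 ± 0.0752 to 70.4 ± 11.1 CPM and DBP, its relative, fell from 7.33 ± 0.838 to 2.38 ± 0.485 CPM.

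SR proteins and their kinases had 2 of 23 higher and 1 lower (median log2 fold change 0.05, and -0.52 with 2 higher and 5 lower under library totals, a change of sign). The kinase CLK1 rose from 40.6 ± 1.42 to 184 ± 12.6 CPM and CLK3 from 45.4 ± 2.69 to 147 ± 21.1 CPM, and the splicing factor SRSF3 fell from 479 ± 5.19 to 168 ± 7.18 CPM. Nuclear transport genes had 6 of 53 higher and 10 lower (median log2 fold change -0.08, and -0.65 with 2 higher and 19 lower under library totals), shares near the background of 14.4% and 19.1%, with NUP88 from 153 ± 4.20 to 28.9 ± 2.81 CPM. Histone methyltransferases and demethylases had 12 of 59 higher and 6 lower (median log2 fold change 0.13, and -0.44 with 4 higher and 16 lower under library totals, a change of sign), and KDM6B, an H3K27 demethylase, rose from 34.7 ± 0.458 to 202 ± 24.6 CPM. Among 471 C2H2 zinc finger genes named ZNF, 56 rose and 118 fell (median log2 fold change -0.25, and -0.82 with 21 higher and 184 lower under library totals), with ZNF460 from 4.61 ± 0.663 to 62.7 ± 2.16 CPM and ZNF287 from 16.5 ± 4.63 to 1.31 ± 0.601 CPM. In 195 symbol families of 10 or more tested genes, the largest shares called higher were in histones (46 of 54, 85.2%), KLF (60.0%), RPL (58.8%) and RPS (58.1%). The largest shares called lower were in CHST, the carbohydrate sulfotransferases (7 of 13, 53.8%), ZFP (10 of 20), PARP (46.2%), PIK (46.2%) and TRIM, the tripartite motif ubiquitin ligases (24 of 53, 45.3%, with 1 higher). CHST12 fell from 59.5 ± 0.471 to 9.66 ± 0.501 CPM, PARP9 from 75.1 ± 7.31 to 9.14 ± 1.12 CPM and TRIM21, an antibody receptor of the cytosol, from 17.5 ± 1.75 to 3.11 ± 0.3901 CPM. Under library totals the median log2 fold changes of these families were 2.66 for histones, 0.61 for KLF, 0.51 for RPL, 0.53 for RPS, -1.86 for CHST, -1.51 for ZFP, -1.42 for PARP, -1.49 for PIK and -1.40 for TRIM, all of the same sign as with TMM. These families were not tested as sets, and the symbols were sorted by their letters alone.

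Further lists had calls in both directions. The BCL2 family, which sets the threshold of apoptosis, had 4 of 19 genes higher (BBC3, HRK, MCL1 and PMAIP1) and 4 lower (BCL2L1, BMF, BNIP3 and BOK, median log2 fold change -0.25, and -0.83 with 4 higher and 6 lower under library totals). The rises held pro-apoptotic BH3-only members and the survival protein MCL1, and BCL2L1 (BCL-XL), another survival protein, fell from 20.4 ± 0.808 to 6.01 ± 0.676 CPM. The MYC, MAX and MXD network of growth regulators had 5 of 12 higher (MLXIP, MNT, MXD1, MXI1 and MYC) and 1 lower, MYCN (median log2 fold change 0.34, and -0.23 with 3 higher and 3 lower under library totals, a change of sign). MXD1, which opposes MYC, rose from 24.7 ± 0.225 to 186 ± 2.73 CPM. Of the 8 TXNIP, arrestin-domain and MondoA genes, 2 were higher (ARRDC3 and MLXIP) and 1 lower, ARRDC2 (median log2 fold change -0.14, and -0.71 with 1 higher and 3 lower under library totals). Metallothioneins and zinc transporters had 3 of 23 higher (SLC39A1, SLC39A10 and SLC39A4) and 4 lower (SLC30A10, SLC30A3, SLC30A6 and SLC39A11, median log2 fold change -0.25, and -0.82 with 1 higher and 9 lower under library totals). The importer SLC39A10 rose from 69.3 ± 8.73 to 213 ± 9.11 CPM, and SLC30A6, which loads zinc into the Golgi, fell from 47.4 ± 2.83 to 8.88 ± 0.771 CPM. The tricarboxylic acid cycle list had 1 of 22 higher, MDH2 from 257 ± 4.50 to 688 ± 29.7 CPM, and 2 lower, IDH1 and OGDH (median log2 fold change 0.19, and -0.39 with 0 higher and 5 lower under library totals, a change of sign). IDH1 is the cytosolic and peroxisomal enzyme and not part of the mitochondrial cycle. Ribosome biogenesis and RNA polymerase I had 12 of 55 higher and 7 lower (median log2 fold change 0.22, and -0.35 with 6 higher and 13 lower under library totals, a change of sign). TAF1D, of the polymerase I initiation factor, rose from 55.3 ± 1.31 to 304 ± 9.45 CPM, and UTP18, of the small subunit processome, fell from 107 ± 2.48 to 33.2 ± 1.23 CPM. The factors of mRNA 3′ end processing had 1 of 26 higher, CPSF1, and 3 lower, CPSF3, CPSF6 and NPAT (median log2 fold change 0.34, and -0.24 with 0 higher and 6 lower under library totals, a change of sign). Clustered protocadherins, adhesion proteins of neurons whose alpha and gamma genes share their last exons, and so their reads, within a cluster, had 2 of 22 higher (PCDHB1 and PCDHGA11) and 2 lower (PCDHA10 and PCDHAC2, median log2 fold change -0.05, and -0.62 with 1 higher and 4 lower under library totals).

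**Figure D4:**
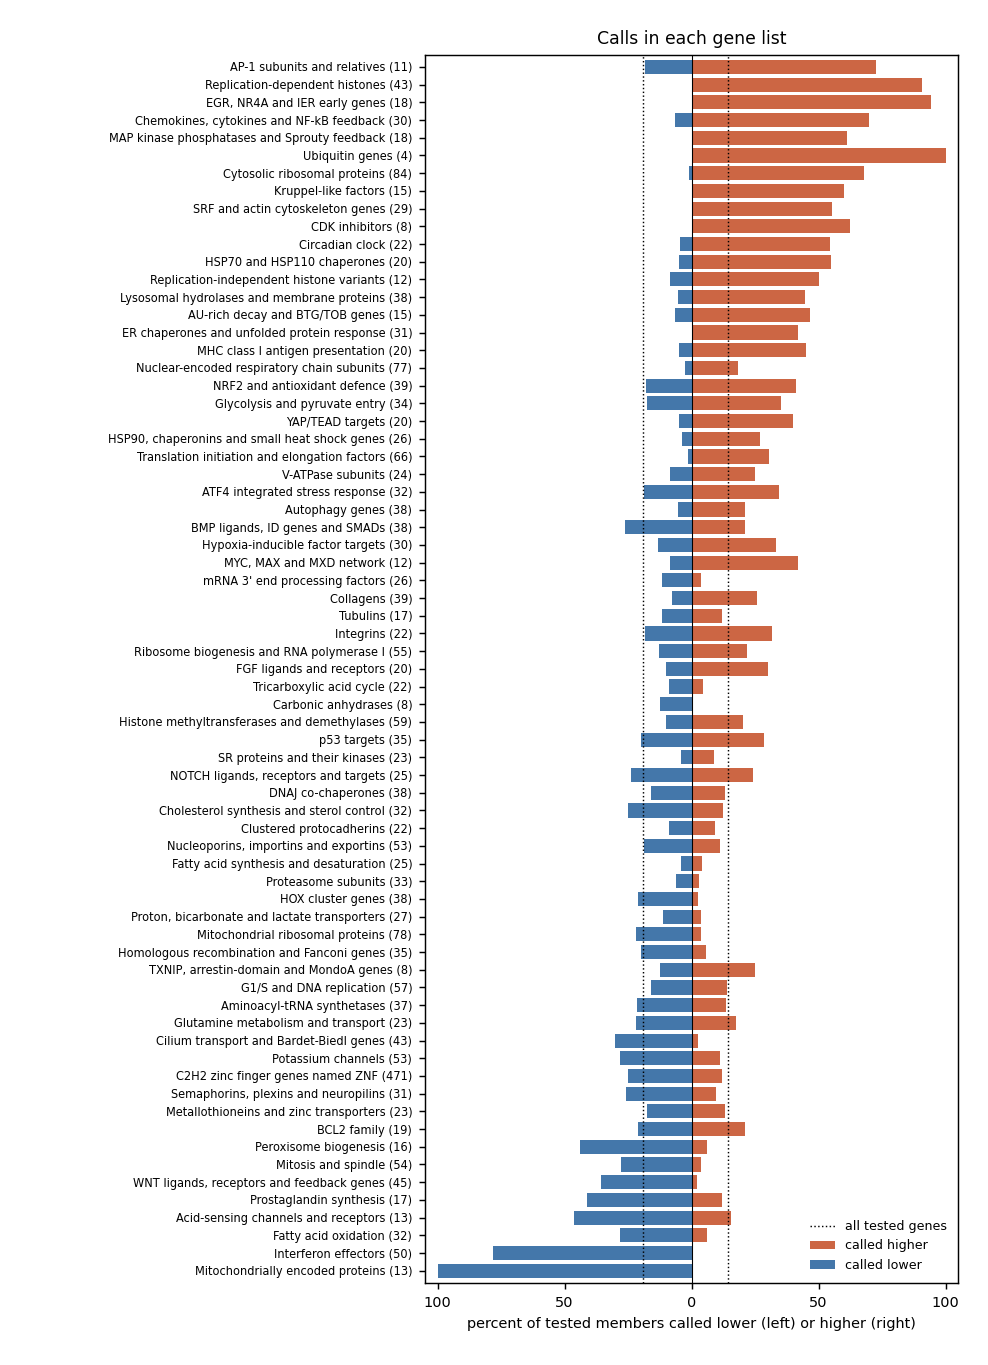
For each gene list, the percent of tested members (number in brackets) called lower to the left and called higher to the right, ordered by the median log2 fold change, with dotted lines at 14.4% higher and 19.1% lower over all tested genes. The lists of line markers and of markers of other cell types are not drawn. Lists of early, histone, cytokine and ribosomal protein genes lie far past the right line, and interferon effectors and mitochondrially encoded genes far past the left line.

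The fold change also varied with the architecture of the gene. By genomic span, the median log2 fold change was 0.32 in 1196 genes under 5 kb, 0.14 from 5 to 20 kb, -0.05 from 20 to 50 kb, -0.11 from 50 to 100 kb and -0.28 in 3142 genes over 100 kb. Calls of higher genes made up 25.6% of the shortest class and 8.50% of the longest, and calls of lower genes 16.2% and 22.4%. Under library totals every median was negative, from -0.25 to -0.86, in the same order, and the order also held among genes of at least 6 CPM in either group. Without replication-dependent histones and ribosomal proteins, the 1131 genes under 5 kb had a median of 0.23. By exon number the medians were 0.12 in 371 single-exon genes and -0.17 in genes with 15 or more exons, but the 328 single-exon genes without histones had a median of -0.12. Single-exon genes had the widest spread, with 27.8% called higher and 23.2% called lower. Over 5 classes of transcript length with equal numbers of genes, the shortest had a median of 0.19 and the longest -0.12. The medians of 5 classes of promoter GC content lay between -0.07 and -0.01.

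**Figure D5:**
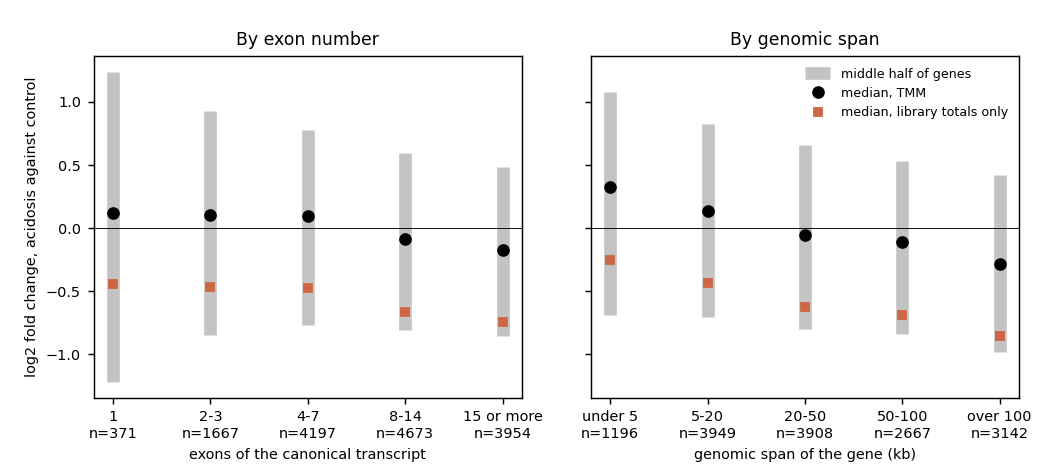
Median (points) and range from the lower to the upper quartile (grey bars) of the log2 fold change of acidosis against control by exon number and by genomic span of the gene, with the medians under library totals in orange and n the tested genes of each class. The medians step down from 0.32 under 5 kb to -0.28 over 100 kb, and the bars of all classes overlap.

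The identity of the line was checked against its markers. The line markers VIM (vimentin), NEFM (a neurofilament), KRT8, KRT18 and CDH2 were at 22 CPM or more in every sample, and 3 of 19 tested line markers were called higher and 4 lower (median log2 fold change -0.26, and -0.83 with 2 higher and 7 lower under library totals). The summed level of the line markers was 1942 and 1875 CPM in control and 4076, 4083 and 4084 CPM in acidosis. VIM made up a large part of this sum and of its rise. VIM rose from 867 ± 34.7 to 2714 ± 36.2 CPM, and the kidney progenitor factors SIX2 and PAX2 fell, from 5.48 ± 1.23 to 0.356 ± 0.154 CPM and 6.78 ± 0.400 to 1.82 ± 0.646 CPM. Of 24 markers of other cell types, 11 passed the filter and 6 were called higher, 54.5% against 14.4% over all genes (median log2 fold change 1.02, and 0.44 with 1 higher and 2 lower under library totals). Of these COL1A1 went from 30.8 ± 0.0359 to 62.3 ± 4.08 CPM, and PTPRC, LYZ, VWF, CD14 and HBA1 stayed under 3 CPM in every sample. The list summed to 189 and 175 CPM in control and 337, 331 and 334 CPM in acidosis, carried mainly by EPCAM and COL1A1, and 7 markers were at 0 in every sample (among them SLC12A1, AQP2, UMOD, CD3E and INS). COL1A1 is also in the list of collagens. The part of these markers in any result was not tested. TBP, a reference gene for RT-PCR, measured 28.0 and 25.7 CPM in control and 22.0, 21.8 and 18.8 CPM in acidosis (log2 fold change -0.36 ± 0.12 SE, adjusted p = 0.0225), under the fold limit.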

How the data were processed

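Poly(A) RNA of HEK-293 cells was sequenced on an Illumina NextSeq after KAPA mRNA capture. The authors trimmed reads (Trimmomatic 0.39 and Trim Galore 0.6.6 are named in the submitters' processing notes), quantified them with Salmon 1.5.1 against a GENCODE transcriptome of GRCh38 and summed them to genes with tximport, depositing estimated counts (expected counts, not whole numbers, not normalized). The tximport option, and whether counting used strand, are not given in the sources used here. Counts were rounded, filtered by expression with edgeR 4.0.16 in R 4.3.3, scaled by TMM and fitted with the quasi-likelihood test over all 7 samples, with Benjamini-Hochberg adjustment over 14863 genes. DESeq2 1.42.0 was an alternative. Genes were matched by identifier to GENCODE release 44 and promoters to RefSeq (GRCh38.p14) by symbol, or by an older symbol where the window lay near the gene on its strand. Of 200 simulated changed genes edgeR recovered 100% with 5 false calls among 14863 genes. Recovery with as large a share of changed genes as the 33.5% called in the data was not tested. Named genes were the 10 largest gains and losses in CPM without overlap between groups, the 10 highest switched on and lost, the 2 largest calls per direction in each of 71 lists (at least 5 CPM in a group) and in the leading symbol families, the RT-PCR reference gene and markers, and a few of these genes are not reported here. The comparison, the lists and the members were chosen with earlier results of these data known. Alternatives were other scalings, filters, fold limits, floors, tools, sample sets, a replicate block and leaving out each replicate. Counts set the precision: 3 counts in a library equal 0.108 to 0.275 CPM at the smallest libraries of each group, which covers counting error only.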

Additional observations from a re-analysis of the deposited data

How the results depend on the processing

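The count of genes called was 2145 higher and 2840 lower, and with library totals alone it was 815 higher and 5202 lower. With an absolute log2 fold change over 2 it was 524 higher and 895 lower. Under RLE size factors, DESeq2, no filter, a filter at 6 CPM in the mean of a group and the 5 samples alone, the counts ran from 1641 to 2243 higher and from 2186 to 2957 lower. Leaving out each replicate in turn gave 1974 to 2160 higher and 2658 to 2850 lower, with 87.1% to 93.4% of the calls kept. No call changed sign in any of these fits.

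The genes switched on numbered 13, and 5 with a floor of 0 counts, 4 at 5 CPM or more in every library, and 14 to 24 when a replicate was left out, the highest without control replicate 2. The genes lost numbered 48, and 11 with a floor of 0 counts, 4 at 5 CPM or more in every library, and 63 to 88 when a replicate was left out, the highest without acidosis replicate 1. A rule that needs every library is met by more genes when there are fewer libraries.

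Replicate numbers 1 and 2 are shared by both groups, but samples of the same number did not deviate in the same direction (r = -0.23 and -0.27 over 9903 genes). They were therefore not treated as pairs. Deviations were taken from the group mean, so that of control 1 is the negative of that of control 2. The 2 values are thus not separate checks, and whether samples of different number shared a batch was not tested. With the replicate block the calls were 2064 higher and 2794 lower.

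Over 269 named genes, 3209 of 3213 alternative values kept their direction and their side of an adjusted p of 0.05, and 0 reversed. A call also needs the fold limit, and 37 of the 268 called named genes, all of them rises, were at or below it under library totals, where 73.3% of all calls were kept. CPT1B lost its adjusted p under library totals (0.0736). TBP lost it under the block (0.0937), without control replicate 1 (0.128) and without acidosis replicate 3 (0.0627). With 2 control samples the spread in control rests on a single difference, and genes under a few CPM are limited by the depth of the acidosis libraries.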
